A study of Homo sapiens with 6 samples.

Results

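The 7 genes described here belong to the plasminogen activation system and to the serpin family: PLAU, PLAT, PLAUR, SERPINE2, SERPINB2, SERPINF1 and SERPINA6. They were chosen by name, with earlier results of these data known. All 7 were found among the 25680 gene symbols of the count tables. They passed the filter on low counts that left 14598 genes for testing. The cells were U87, an established human glioblastoma line labelled WT, grown as a single line with no untreated comparison. All of them received 500 nM of the cyclic peptide EPP6 carrying the fluorescent dye rhodamine for 1 h, were detached and were sorted by fluorescence. The brightest 30% of cells are called high uptake here and the dimmest 30% low uptake, with 3 RNA-seq libraries each, numbered 2, 3 and 4 in the labels. The question put to the data was how the RNA of these 7 genes differed between high and low uptake.

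Plasminogen activation is a proteolytic cascade at the cell surface. Urokinase (PLAU) and tissue plasminogen activator (PLAT) cut plasminogen into plasmin, which degrades fibrin and matrix proteins, and the urokinase receptor (PLAUR), held in the membrane by a GPI anchor, concentrates urokinase there. Serpins are proteins that mostly inhibit serine proteases by trapping them in a covalent complex, although some members have lost that activity. Gliomas are known for high urokinase and urokinase receptor, which have been studied in their invasion of brain tissue.

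Of the 7 genes, 1 was higher in high uptake, SERPINA6, and 1 was lower, SERPINB2, while PLAU, PLAT, PLAUR, SERPINE2 and SERPINF1 did not pass the test. Calls rest on edgeR's quasi-likelihood test over all 14598 genes with a Benjamini-Hochberg adjusted p under 0.05. Of all tested genes, 4.29% passed: 3.03% were higher in high uptake and 1.26% were lower. As the 7 genes were chosen with earlier results known, no excess over the shares of all genes is read here. Levels are given as CPM, the counts of a gene per 1000000 counts of its library after TMM scaling. In CPM the groups did not overlap for 2 of the 7 genes, SERPINA6 (high above low) and SERPINB2 (high below low), as for 24.4% of all tested genes (1903 genes with high above low, and 1666 genes or 11.4% with high below low). The 7 genes had a median log2 fold change of 0.07, against -0.00 over all tested genes. The whole table gave 442 genes higher in high uptake and 184 lower, and 1510 higher and 1189 lower once the dependence of each library on GC content was taken out (GC trend removed). It gave 232 called genes in all without low-uptake library 4, 276 without low-uptake library 3, 282 without high-uptake library 2 and 379 without high-uptake library 4.

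Total counts per library ranged from 13712263 to 40742857. Whether the libraries came from separate cultures is not in the labels, and the p-values cover only the spread among these samples, part or all of which can be technical. Of the 10 glioma and astroglial markers, 6 averaged at least 1 CPM: VIM averaged 10529 ± 522 CPM in high and 10263 ± 338 CPM in low uptake (SD, n = 3 each), while GFAP and S100B were under 1 CPM in each library and AQP4 was at 0. CHI3L1 (log2 0.99, edgeR adjusted p = 0.0890) and CD44 (log2 0.16) lay higher in high uptake, without overlap or a call. OLIG2 (log2 -0.46, adjusted p = 0.320) and SLC1A3 (log2 -0.17) lay lower, also without overlap or a call. Myeloid cells, which can express PLAUR and SERPINB2 strongly, had 2 of 10 markers at 1 CPM or more. Their summed level was 275 to 305 CPM in high and 253 to 305 CPM in low uptake, most of it CD68, with AIF1 at 0. Of 8 fibroblast and pericyte markers, COL1A1, PDGFRB and LUM rose. The 8 summed to 813 to 993 CPM in high and 382 to 528 CPM in low uptake. Most of this was COL1A1, at 818 ± 85.1 CPM in high and 416 ± 74.2 CPM in low uptake. PDGFRA and ACTA2 lay higher in high uptake without passing, and DCN was under 1 CPM in each library. RGS5 (log2 -0.19, edgeR adjusted p = 0.633) and THY1 (log2 0.16, adjusted p = 0.881) overlapped between the groups. The 8 endothelial markers summed to 8.91 to 9.69 CPM in high and 9.50 to 9.92 CPM in low uptake, and the 7 epithelial markers to 4.11 to 5.12 CPM in high and 3.75 to 4.72 CPM in low uptake. Among the endothelial markers, KDR (log2 -0.49, edgeR adjusted p = 0.0820) lay lower and TEK (log2 0.54, adjusted p = 0.131) higher in high uptake. The groups did not overlap for either gene, and neither was called. The part of all these cell type markers in the results below was not tested. In bulk samples such as these, a change in the share of cells that express a gene cannot be told apart from a change in RNA per cell.

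The 7 genes spanned a wide range of levels. On the authors' TPM scale, which is per gene length and can be compared between genes, the order in high uptake was PLAU, PLAUR, SERPINE2, SERPINB2, PLAT, SERPINF1 and SERPINA6, and it was the same in low uptake. PLAU averaged 1377 ± 403 TPM in high and 1063 ± 298 TPM in low uptake (SD, n = 3 each), which ranked it 73rd in high and 110th in low uptake among all listed genes. PLAUR averaged 308 ± 14.6 TPM in high and 287 ± 14.4 TPM in low uptake, and SERPINE2 averaged 165 ± 43.2 TPM in high and 161 ± 11.5 TPM in low uptake. SERPINB2 averaged 79.7 ± 18.7 TPM in high and 121 ± 4.58 TPM in low uptake. The other 3 genes were low. PLAT averaged 5.11 ± 0.453 TPM in high and 4.41 ± 0.570 TPM in low uptake, SERPINF1 3.92 ± 0.256 TPM in high and 4.03 ± 0.471 TPM in low uptake, and SERPINA6 3.64 ± 1.11 TPM in high and 1.33 ± 0.249 TPM in low uptake. Neighbours in this order whose libraries overlapped were SERPINF1 and SERPINA6 in high uptake and PLAT and SERPINF1 in low uptake.

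**Figure D1:**
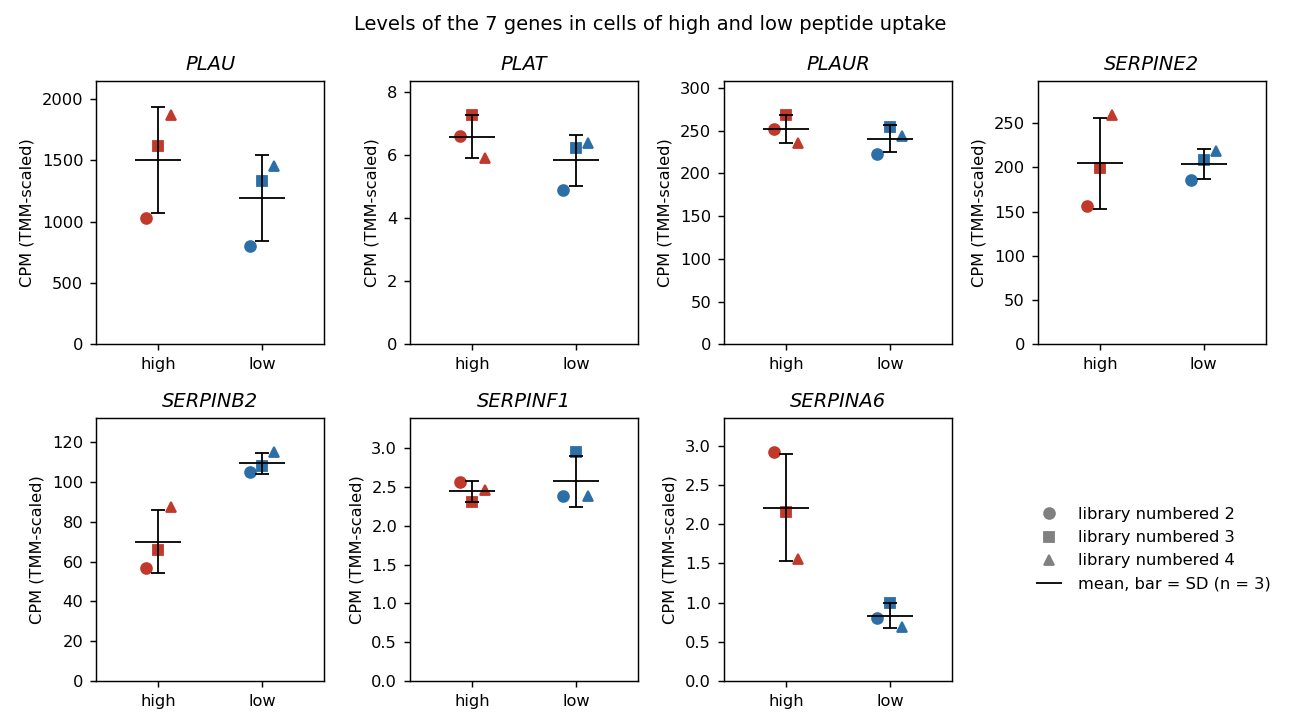
TMM-scaled CPM of the 7 genes in each library (vertical axes from 0), with high uptake at the left and low uptake at the right; symbols mark the library number, the black bar the mean and its whiskers the SD of 3 libraries. SERPINB2 at 56.8 to 87.3 CPM in high uptake lay below all low-uptake libraries, SERPINA6 at 1.56 to 2.92 CPM lay above them, and the groups overlapped for the other 5 genes.

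SERPINB2 encodes plasminogen activator inhibitor 2, an inhibitor of urokinase that is largely kept inside the cell. Its level was 56.8, 66.0 and 87.3 CPM in high-uptake libraries 2, 3 and 4, against 105, 108 and 115 CPM in low-uptake libraries 2, 3 and 4. The low-uptake libraries lay close together and above all high-uptake libraries, which were more spread, with library 4 the highest of them. SERPINB2 was 0.641 times as high in high uptake by group means, a log2 fold change of -0.64 (SE 0.133, 95% interval -0.93 to -0.35, adjusted p = 0.0218). Exons of SERPINB10 on the same strand share 547 of the 2748 exonic bases of SERPINB2 in GENCODE v29, and SERPINB10 had 0 to 2 counts in every library. SERPINB2 and SERPINA6 were among the 2305 symbols in the authors' deposited list, which gives no values. That list presumably rests on these same libraries, and it held 620 of the 626 genes called here. Membership is therefore no separate evidence for either gene. The call of SERPINB2 was lost without low-uptake library 3 (adjusted p = 0.0512) or 4 (0.0861) and with the GC trend removed (log2 -0.65, adjusted p = 0.0922). With single libraries left out, the log2 fold change lay between -0.83 (without high-uptake library 4) and -0.51 (without high-uptake library 2).

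SERPINA6 encodes corticosteroid-binding globulin, a serpin that carries cortisol in blood, is made mainly by the liver and does not inhibit proteases. It had 118, 29 and 52 counts in high-uptake libraries 2, 3 and 4, against 31, 22 and 14 counts in low-uptake libraries 2, 3 and 4. Scaled, these were 2.92, 2.15 and 1.56 CPM in high uptake and 0.802, 1.00 and 0.684 CPM in low uptake. Library 2 was the highest and library 4 the lowest of the high-uptake libraries, and all 3 lay above every low-uptake library. The ratio of group means was 2.67, with a log2 fold change of 1.43 (SE 0.286, 95% interval 0.80 to 2.05, adjusted p = 0.0187). The 8 liver markers, in which hepatocyte RNA would show, summed to 0.148 to 1.04 CPM in high and 0.155 to 0.636 CPM in low uptake, with TTR and AHSG at 0. The call was lost without high-uptake library 2 (log2 1.10, adjusted p = 0.0749) or low-uptake library 4 (log2 1.33, adjusted p = 0.0760), and the gene left the tested set when at least 50 counts in 3 libraries were asked for.

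The promoters of these genes are shown for the bases 250 to 1 before the RefSeq start (GRCh38.p14), since SERPINB2 and SERPINA6 moved in opposite directions. PLAUR is given beside them as a cascade gene whose level did not pass the test. Sequences come from RefSeq, where 5 of the 7 genes were matched. The windows are chr18:63887455-63887704 on the plus strand for SERPINB2, chr14:94323337-94323586 on the minus strand for SERPINA6 and chr19:43670170-43670419 on the minus strand for PLAUR. Capitals mark matches on either strand to any of 5 motifs. These were the AP-1 site TGANTCA, the TATA box searched as TATAAA, the CCAAT box searched by those letters, the GC box searched as GGGCGG, and the core of the hypoxia response element, searched as ACGTG. In these 3 windows 0 bases lie in more than 1 of the motifs.
SERPINB2: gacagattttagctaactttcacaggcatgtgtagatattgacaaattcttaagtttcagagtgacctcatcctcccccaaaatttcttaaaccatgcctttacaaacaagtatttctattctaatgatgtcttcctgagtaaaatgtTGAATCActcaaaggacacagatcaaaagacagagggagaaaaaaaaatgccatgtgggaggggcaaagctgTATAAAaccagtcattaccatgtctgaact
SERPINA6: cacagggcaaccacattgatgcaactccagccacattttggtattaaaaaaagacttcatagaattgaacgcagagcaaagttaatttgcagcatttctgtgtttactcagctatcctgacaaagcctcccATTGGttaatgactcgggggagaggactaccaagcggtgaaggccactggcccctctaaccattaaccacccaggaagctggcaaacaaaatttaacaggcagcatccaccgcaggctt
PLAUR: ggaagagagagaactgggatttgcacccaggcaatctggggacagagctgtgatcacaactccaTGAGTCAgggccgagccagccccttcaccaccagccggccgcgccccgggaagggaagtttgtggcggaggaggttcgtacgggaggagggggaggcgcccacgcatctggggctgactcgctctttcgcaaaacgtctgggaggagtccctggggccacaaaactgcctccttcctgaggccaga
The SERPINB2 window held TGANTCA starting 102 bases and TATAAA starting 30 bases before the start. The SERPINA6 window held CCAAT on the opposite strand, 119 bases before the start, and neither of the motifs of SERPINB2. The PLAUR window held TGANTCA 186 bases before the start and no TATAAA. The matched windows of PLAU and SERPINE2, cascade genes that also did not pass, are not shown. They held neither TGANTCA nor TATAAA, and CCAAT occurred in windows of both genes. Over all 35116 RefSeq windows of the same length, 6.57% held TGANTCA, 10.7% TATAAA, 32.0% CCAAT, 42.6% GGGCGG and 18.5% ACGTG. The SERPINB2 window had 37.2% G and C, against 46.8% for SERPINA6 and 63.2% for PLAUR. A match of letters is a description and does not show that a factor binds there.

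PLAU, the urokinase gene, was the most abundant of the 7 genes in TPM. It stood at 1028, 1619 and 1868 CPM in high-uptake libraries 2, 3 and 4, against 798, 1331 and 1452 CPM in low-uptake libraries 2, 3 and 4. Library 2 was the lowest in both groups, and the groups overlapped. At each library number, the high-uptake value lay above the low-uptake value. Without a block in the fit, the log2 fold change was 0.33 (SE 0.317, edgeR adjusted p = 0.653). Its 95% interval ran from 0.725-fold to 2.19-fold, so neither a modest fall nor a doubling lay outside it. With the library number as a block in the fit, the log2 fold change was 0.34 (SE 0.0518, edgeR adjusted p = 1.13e-05). What equal numbers share is not in the labels, so no pairing was assumed. With both libraries numbered 2 left out, which left 2 in each group, the log2 fold change was 0.33 (SE 0.0962, edgeR adjusted p = 0.0316). No other same-numbered pair was left out, so this single exclusion is not read as a call of PLAU.

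Counts of PLAU can hold or miss reads because of a second gene, and the reverse. Exons of C10orf55, on the opposite strand, overlap those of PLAU over 916 of 2950 exonic bases in GENCODE v29, and the strand setting of the authors' counting is not given in the sources used here. C10orf55 had 0.389 to 0.400 counts for each PLAU count in all 6 libraries, while PLAU itself ranged from 798 to 1868 CPM. Without the strand setting, reads from the shared bases cannot be assigned to either gene from these counts. The level of C10orf55 is not read as a separate gene here.

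PLAT, the gene of the other activator, was expressed at a far lower level than PLAU. Its level was 6.61, 7.27 and 5.91 CPM in high-uptake libraries 2, 3 and 4 and 4.89, 6.22 and 6.40 CPM in low-uptake libraries 2, 3 and 4. The ranges overlapped, and the log2 fold change was 0.18 (SE 0.147, 95% interval -0.15 to 0.50, adjusted p = 0.578). Per length, PLAU exceeded PLAT by 183 to 373 times in TPM in the high-uptake libraries and by 193 to 267 times in the low-uptake libraries.

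PLAUR, the urokinase receptor, had the smallest SE of the 7 genes. It stood at 252, 268 and 236 CPM in high-uptake libraries 2, 3 and 4, against 223, 254 and 244 CPM in low-uptake libraries 2, 3 and 4. The groups overlapped and the log2 fold change was 0.07 (SE 0.0804, adjusted p = 0.708). Its 95% interval ran from 0.929-fold to 1.19-fold. PLAU exceeded PLAUR in TPM by 3.04 to 5.91 times in high-uptake and by 2.67 to 4.45 times in low-uptake libraries, lowest in library 2 of each group.

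SERPINE2 encodes protease nexin 1, a secreted inhibitor of thrombin, urokinase and plasmin that binds heparan sulfate. It stood at 156, 199.6 and 259 CPM in high-uptake libraries 2, 3 and 4, against 186, 208 and 219 CPM in low-uptake libraries 2, 3 and 4. The low-uptake values lay inside the spread of the high-uptake ones. The means were both 205 CPM, with SDs of 51.4 in high and 17.1 in low uptake, and the log2 fold change was 0.00 (SE 0.148, 95% interval -0.32 to 0.33, adjusted p = 0.996). In each library SERPINE2 exceeded SERPINB2 in TPM, by 1.95, 2.15 and 2.10 times in high-uptake libraries 2, 3 and 4 and by 1.26, 1.37 and 1.36 times in low-uptake libraries 2, 3 and 4. These ratios, chosen after the values were seen and not tested, did not overlap between groups.

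SERPINF1 encodes pigment epithelium-derived factor, a secreted serpin without inhibitory activity that is known to restrain blood vessel growth and to support neurons. It stood at 2.57, 2.30 and 2.46 CPM in high-uptake libraries 2, 3 and 4, against 2.38, 2.95 and 2.39 CPM in low-uptake libraries 2, 3 and 4. With 31 to 104 counts per library, its log2 fold change of -0.06 had an SE of 0.175 (95% interval -0.44 to 0.33, adjusted p = 0.913). Low-uptake library 3 was the highest and high-uptake library 3 the lowest.

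**Figure D2:**
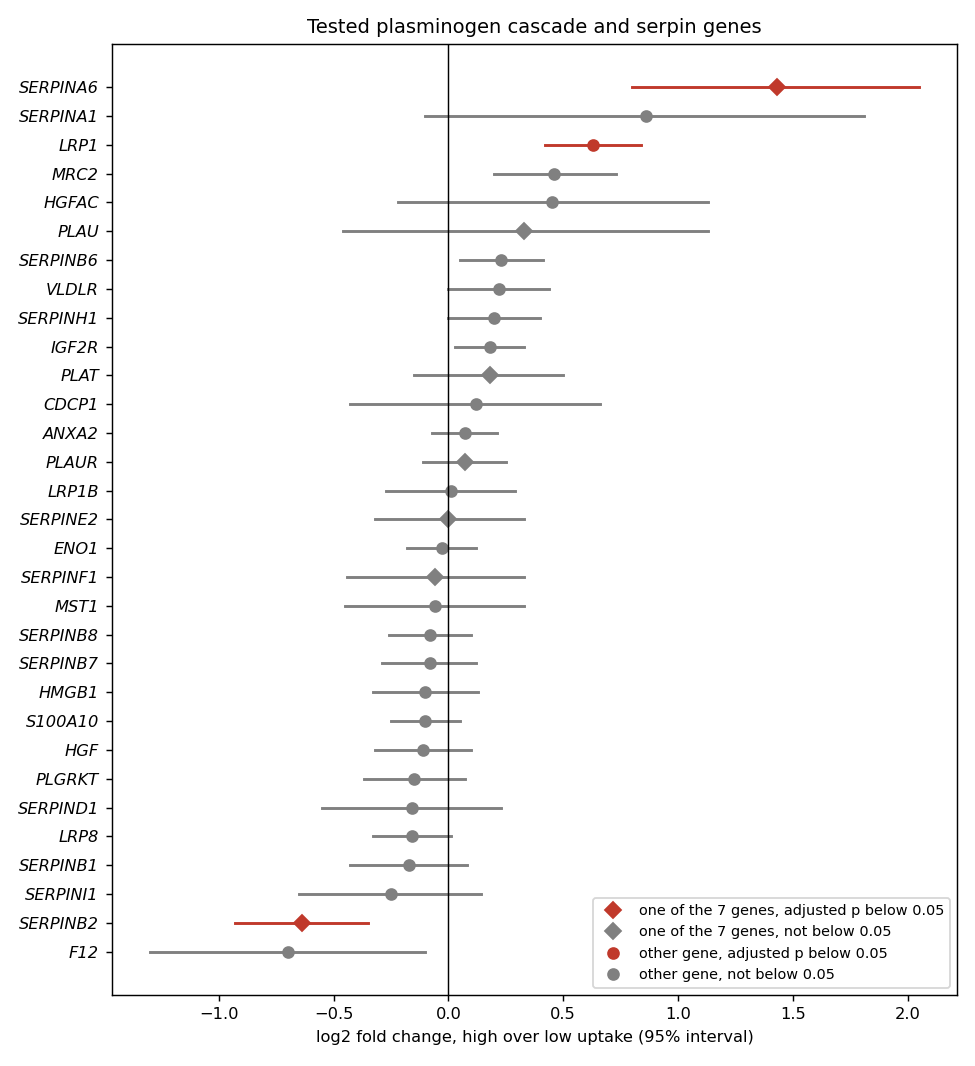
Log2 fold changes of high over low uptake with 95% intervals for tested genes of the plasminogen cascade and the serpin family (diamonds, the 7 genes; circles, others; red, edgeR adjusted p under 0.05). SERPINA6 at 1.43 and LRP1 at 0.63 are red on the right and SERPINB2 at -0.64 on the left, while PLAU at 0.33 has one of the widest intervals.

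Around these genes, the wider cascade gave few calls. In a list of 36 genes of plasminogen activation, binding and clearance, 23 were tested, of which LRP1 was higher in high uptake, SERPINB2 was lower and 21 were not called (median log2 fold change 0.01). Without the 7 genes this was 1 of 18, or 5.56%, close to the 4.29% of all genes. LRP1 encodes the endocytic receptor that removes complexes of urokinase and its inhibitors from the surface. It stood at 1241, 1435 and 1106 CPM in high uptake and 767, 875 and 804 CPM in low uptake, libraries 2, 3 and 4 in each, with no overlap (log2 0.63, SE 0.0965, adjusted p = 0.00470). Once the dependence of each library on gene length was taken out, LRP1 no longer passed (log2 0.46, SE 0.113, adjusted p = 0.0553).

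Plasminogen itself was nearly absent from the RNA. PLG had 2, 1 and 0 counts in high-uptake libraries 2, 3 and 4 and no count in the low-uptake libraries, and it was not tested. The plasmin inhibitor gene SERPINF2 had 1 to 5 counts in high-uptake and 1 to 3 counts in low-uptake libraries. Genes of surface proteins that bind plasminogen ranged widely in level. PLGRKT, a plasminogen receptor, averaged 20.0 ± 1.71 CPM in high and 22.3 ± 1.07 CPM in low uptake (SD, n = 3 each, log2 -0.15, edgeR adjusted p = 0.457), while the integrin genes ITGAM and ITGB2 averaged under 1 CPM in both groups. ANXA2, annexin A2, averaged 1743 ± 46.8 CPM in high and 1663 ± 35.1 CPM in low uptake (SD, n = 3 each, log2 0.07, adjusted p = 0.637). Its partner S100A10 averaged 286 ± 8.04 CPM in high and 306 ± 8.71 CPM in low uptake (log2 -0.10, adjusted p = 0.485). The collagen receptor MRC2, which associates with the urokinase receptor, averaged 215 ± 24.3 CPM in high and 156 ± 25.3 CPM in low uptake (log2 0.46, adjusted p = 0.0568).

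The serpin list held 35 genes, AGT included, of which 13 were tested and SERPINA6 and SERPINB2 were called. Of the 9 tested serpins outside the 7 genes, 0 passed edgeR's test, although 2 had an unadjusted p under 0.05. In DESeq2 1 of them passed, and in limma 0. Over all 14598 tested genes, 2679 had an unadjusted p under 0.05 in edgeR, 887 passed in DESeq2 and 605 in limma. SERPINH1, a collagen chaperone of the endoplasmic reticulum, averaged 133 ± 13.2 CPM in high and 116 ± 7.84 CPM in low uptake (SD over 3 libraries, log2 0.20, SE 0.0927, edgeR adjusted p = 0.275). It passed with the GC trend removed (0.0258), with the library number as a block (0.0122) and with both (0.00146).

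The Ly6, tissue factor and other inhibitor lists gave 1 call each, 1 of 8, 1 of 12 and 1 of 9 tested genes, beside the 4.29% of all tested genes, and counts this small are not read as a result about the lists. LYPD6, of the Ly6 family to which the urokinase receptor belongs, stood at 8.88, 9.05 and 8.94 CPM in high-uptake and 6.85, 6.41 and 5.82 CPM in low-uptake libraries 2, 3 and 4 (log2 0.49, SE 0.117, adjusted p = 0.0415). It was the only one of 8 tested family members called, and its call was lost without any single library but low-uptake library 2 (adjusted p up to 0.187) and with the length trend removed (0.0574). F2R, the thrombin receptor PAR1, was the 1 called among 12 tested genes of the tissue factor pathway and thrombin, at 71.7 ± 3.44 CPM in high and 52.2 ± 2.92 CPM in low uptake (log2 0.46, SE 0.0849, edgeR adjusted p = 0.0128), and its call was lost without low-uptake library 4 (adjusted p = 0.0863). SPOCK1, a proteoglycan with a protease inhibitor-like domain, was the 1 called among 9 tested genes of other serine protease inhibitors, at 247 ± 17.3 CPM in high and 179 ± 5.48 CPM in low uptake (log2 0.47, adjusted p = 0.00728). Of 12 tested glucocorticoid-responsive genes, listed because SERPINA6 binds cortisol, none passed in edgeR as tested, DESeq2 or limma, with 3 at an unadjusted p under 0.05. In edgeR, 3 passed with the GC trend removed, 5 with the library number as a block and 6 with both. Of all 14598 tested genes, 2699, 3176 and 4094 passed in these settings, and 2679 had an unadjusted p under 0.05 as tested. These counts are not read as a result about the list. Of the 12 genes, TSC22D3 had the smallest p as tested, at 18.5 ± 0.791 CPM in high and 14.5 ± 1.06 CPM in low uptake (log2 0.36, SE 0.101, adjusted p = 0.0764). TSC22D3 passed with the GC trend removed (0.00856), with the block (0.00275) and with both (0.00204).

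**Figure D3:**
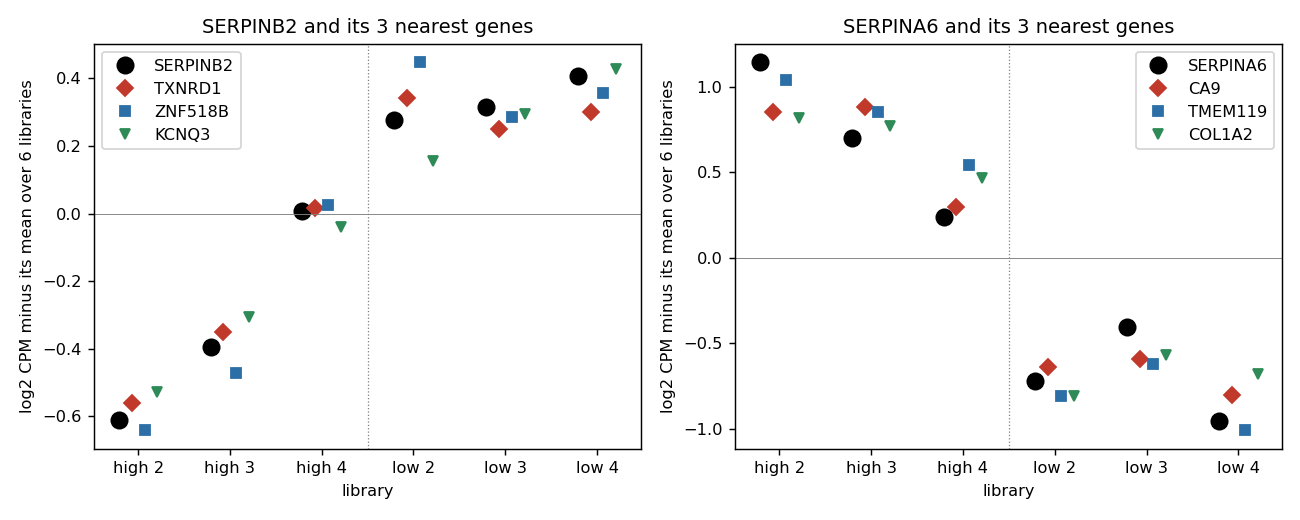
Log2 CPM minus its mean over the 6 libraries for SERPINB2 (left) and SERPINA6 (right) with the 3 genes of nearest profile, high-uptake libraries to the left of the dotted line. SERPINB2 and its neighbours are lowest in high-uptake library 2 and SERPINA6 and its neighbours are lowest in the low-uptake libraries.

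The profiles of the called genes were then set against 13178 other tested genes of at least 1 CPM, by the root mean square difference of centred log2 CPM over the 6 libraries. The measure includes the difference between groups, so that genes near a called gene share its direction by construction, and no test was made. Nearest to SERPINB2 were TXNRD1 (0.0624), a thioredoxin reductase of the antioxidant response, ZNF518B (0.0759) and KCNQ3 (0.0785), a potassium channel subunit. TXNRD1 stood at 870.0 ± 178 CPM in high and 1296 ± 40.4 CPM in low uptake (log2 -0.58, adjusted p = 0.0214). Its call was lost without high-uptake library 3 (0.0553) and without low-uptake library 4 (0.0742). It was also lost with the GC trend removed, without (0.0663) or with the library number as a block (0.0634). ZNF518B (log2 -0.69, adjusted p = 0.0724) and KCNQ3 (log2 -0.57, adjusted p = 0.0936) did not pass as tested. They passed with the GC trend removed (0.0211 and 0.0272), with the block (0.00273 and 0.00625) and with both (0.00355 and 0.00480). ZNF518B also passed without a filter (0.0269) and without high-uptake library 4 (0.0342). Nearest to SERPINA6 were CA9 (0.164), a cell-surface carbonic anhydrase induced by low oxygen, TMEM119 (0.190) and COL1A2 (0.200), a chain of type I collagen. These 3 rose by 1.37, 1.63 and 1.37 on the log2 scale, close to the 1.43 of SERPINA6, and lay farther from it than the nearest genes did from SERPINB2.

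**Figure D4:**
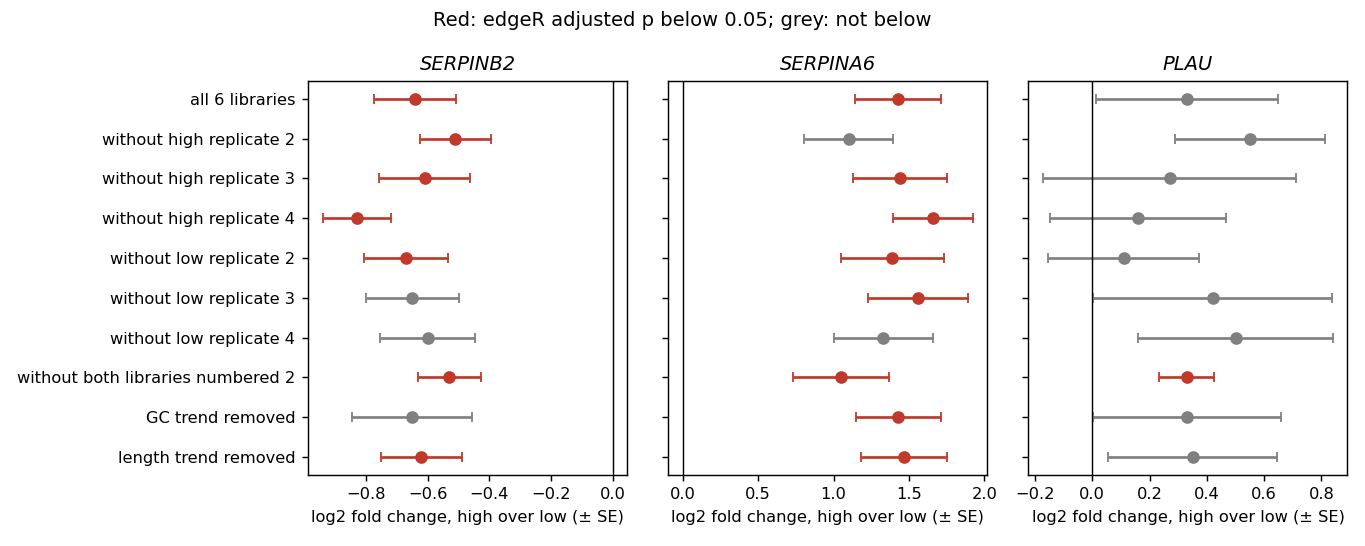
Log2 fold changes of high over low uptake (± SE) for SERPINB2, SERPINA6 and PLAU with all 6 libraries, with libraries left out and with GC or length trends removed (red, edgeR adjusted p under 0.05). SERPINB2 stays between -0.83 and -0.51 and SERPINA6 between 1.05 and 1.66, while PLAU is red without both libraries numbered 2. No other same-numbered pair was left out.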

How the data were processed

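RNA-seq was analysed from 6 U87 libraries, 3 of high and 3 of low peptide uptake. Per the labels' protocols, a directional kit was used on column-extracted total RNA. Read trimming, alignment and counting tools named in the submitters' processing notes are fastp, STAR and featureCounts, with build hg19. Versions, the annotation and the strand setting were not given in the sources used here. The authors deposited whole-number counts per gene symbol with their own FPKM and TPM, per the file headers. TPM, and FPKM as an alternative, were used only for levels set between genes. A deposited list of 2305 symbols holds no values.

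Counts were tested in edgeR 4.0.16 (R 4.3.3): filterByExpr defaults (minimum count 10, minimum total 15), TMM, robust quasi-likelihood F-test without covariates, two-sided, Benjamini-Hochberg adjustment over 14598 genes, threshold 0.05. The SE is the log2 fold change divided by the square root of F. The script was tested on simulated data. Alternatives were DESeq2 1.42.0, limma 3.58.1, other scalings and filters, libraries left out, a replicate block, and GC (GENCODE v29 transcripts, 92.8% of tested genes) or length trends removed. Total counts ranged from 13712263 to 40742857. No 2 libraries of a group agreed within sampling noise (lowest chi-square per degree of freedom 2.40).

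The 7 genes and the lists were chosen with earlier results of these data known. Genes named are the 7, the called genes of a list (where there were none, the gene of smallest p), LRP1 and SERPINH1, and the 3 nearest profiles of each called gene of the 7. PLG, SERPINF2, PLGRKT, ITGAM, ITGB2, ANXA2, S100A10 and MRC2 were added after their values were seen. Results for 1 other gene are not reported here. No table column of sample values was left unassigned. Promoter windows came from RefSeq and exon overlaps from GENCODE v29. Similar transcripts were searched with blastn 2.17.0.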

Additional observations from a re-analysis of the deposited data

How the results depend on the processing

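The fall of SERPINB2 and the rise of SERPINA6 kept their direction under every alternative run. Leaving out single libraries gave log2 fold changes of -0.83 to -0.51 for SERPINB2 and 1.10 to 1.66 for SERPINA6 (0 to 2 of the 7 genes called), 0.11 to 0.55 for PLAU, 0.04 to 0.26 for PLAT, 0.02 to 0.12 for PLAUR, -0.20 to 0.17 for SERPINE2 and -0.12 to 0.05 for SERPINF1. SERPINE2 turned sign around 0.00, to -0.00 with DESeq2's size factors, the 50-count filter and the DESeq2 test, -0.01 with upper quartile scaling, -0.02 in limma and with the GC trend removed, -0.03 with the replicate block and -0.04 with block and GC removal. SERPINB2 had -0.65 and lost its call with the GC trend removed, leaving 1 of the 7 called, as did the 50-count filter, which drops SERPINA6.

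Same-numbered libraries deviated together with r = 0.452, 0.304 and 0.087 for numbers 2, 3 and 4. Each high-uptake library was closest to the low-uptake library of its own number. Low-uptake library 4, however, was closer to high-uptake library 3 (0.216) than to high-uptake library 4. The labels do not say what the numbers share, so no pairing is assumed. With the number as a block, PLAU passed (log2 0.34, adjusted p = 1.13e-05), as with block and GC removal (0.33) and without both libraries numbered 2 (0.33). The block gave 3176 called genes, GC removal 2699 and both 4094, against 626 as tested and 232 to 746 without single libraries (232 and 276 without low-uptake libraries 4 and 3, 282 and 379 without high-uptake libraries 2 and 4). The causes were not tested.

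Calls in the lists under the block, GC removal and both stand beside 3176, 2699 and 4094 of all 14598 tested genes. The plasminogen cascade had 8, 6 and 10 of 23 and the serpins 5, 4 and 6 of 13. The Ly6 family had 3, 3 and 3 of 8 and the tissue factor list 3, 3 and 5 of 12. Other inhibitors had 4, 3 and 4 of 9 and glucocorticoid-responsive genes 5, 3 and 6 of 12. The cascade had 4 of 34 without a filter and 4 of 23 in DESeq2, beside 889 of 20608 and 887 of 14598 tested genes. It had 4 without both libraries numbered 2 and 1 of 23 with the length trend removed, which called 466 genes in all. The Ly6 family had 2 of 14 without a filter, 2 of 8 in DESeq2 and 0 of 8 with the length trend removed. Other inhibitors had 2 of 21 without a filter. Serpins had 1 of 11 under the 50-count filter, which called 532 of 12532 genes. None of these counts is read as a result about a list. Without single libraries there were 1 to 2 calls in the cascade, 0 to 2 among serpins, 0 to 1 each in the Ly6 and tissue factor lists, 1 among other inhibitors and 0 glucocorticoid-responsive genes. The order of levels was the same in FPKM and TPM. SERPINA6 had 14 to 118 counts per library and an SE of 0.286, and SERPINF1 31 to 104 counts and an SE of 0.175.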

Other observations

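SERPINB2 lies in a cluster of serpin genes, and its nearest protein-coding neighbours by RefSeq order were looked up after its fall was seen. SERPINB7, next to it, stood at 48.3 ± 4.51 CPM in high and 51.3 ± 1.71 CPM in low uptake (SD, n = 3 each, log2 -0.08, SE 0.0920, adjusted p = 0.693). SERPINB8, beyond it on the other side, averaged 106 ± 7.73 CPM in high and 113 ± 4.90 CPM in low uptake (log2 -0.08, SE 0.0829, edgeR adjusted p = 0.662). SERPINB10, whose exons overlap those of SERPINB2 as given above, had 0, 1 and 2 counts in high-uptake and 1, 2 and 2 counts in low-uptake libraries 2, 3 and 4. CDH7, the fourth neighbour on that side and a cadherin gene, was higher in high uptake, at 9.51 ± 1.14 CPM in high and 6.10 ± 0.290 CPM in low uptake (log2 0.64, SE 0.129, adjusted p = 0.0195). The differences between these genes' fold changes were not tested.

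SERPINA6 has SERPINA1, the gene of alpha-1 antitrypsin, as a neighbour. SERPINA1 had 45, 18 and 24 counts in high-uptake libraries 2, 3 and 4, against 9, 19 and 15 counts in low-uptake libraries 2, 3 and 4, with overlapping groups and no call (log2 0.86, SE 0.436, adjusted p = 0.333). PPP4R4, on the other side, stood at 3.80 ± 0.587 CPM in high and 3.90 ± 0.719 CPM in low uptake (log2 -0.03, adjusted p = 0.961). SERPINA10, SERPINA11, SERPINA9 and SERPINA12, the remaining serpins within 4 genes, had at most 4 counts in any library.

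For PLAU, SERPINE2 and SERPINB2, library 2 was the lowest and library 4 the highest within both groups. SERPINA6 was highest in library 2 and lowest in library 4 of the high-uptake group. What the library numbers stand for is not given in the labels.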
